A study of Saccharomyces cerevisiae with 32 samples.

Results

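The yeast strain Y127 was set against its parent Y22-3 in rich medium with 2% xylose and no oxygen, a condition in which neither strain grew. All genes with a mean of at least 1 RPKM (reads per kilobase of gene per 1000000 mapped reads) over the 4 libraries of this comparison were taken as its members, which left 5758 of the 6328 genes in the table and put 570 below the filter. The series holds 32 RNA-seq libraries of 3 Saccharomyces cerevisiae strains, of which 24 form 12 groups of duplicates (each strain in glucose or xylose, with or without oxygen). The Y127 group was 2 libraries (A and B) of Y127 in anaerobic xylose, and the Y22-3 group was 2 libraries (A and B) of Y22-3 in anaerobic xylose. The duplicates were collected on different days.

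Both strains carry the same engineered cassette, with a xylose isomerase gene (CpXylA, from Clostridium phytofermentans), a xylulokinase gene (XYL3 of Scheffersomyces stipitis, PsXyl3 in the table), an added copy of the yeast transaldolase gene TAL1 and a kanamycin resistance marker (kanR). Y127 came from Y22-3 by evolution on xylose with oxygen and carries null mutations in ISU1, the scaffold on which iron-sulfur clusters are built, and HOG1, the kinase of the osmotic stress response. Y22-3 has both genes intact, and neither strain has the GRE3 and IRA2 mutations of the later strain Y128. Each strain is a single evolved or engineered line, so the 2 named mutations and any other difference between the lines cannot be told apart here. Cultures were started from saturated cultures grown in glucose with oxygen, and for these non-growing strains incubated as long as the growing strain Y128. The sample records give the growth stage as exponential for all of them.

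Yeast meets a poor carbon source or starvation by lowering the activity of protein kinase A, a kinase switched on by the small G proteins Ras1 and Ras2. Low protein kinase A activity lets the transcription factors Msn2 and Msn4 act through the stress response element, and their targets encode heat shock proteins, antioxidants and enzymes of the storage sugars trehalose and glycogen. Ribosomal proteins and the factors that assemble ribosomes follow the opposite course and are made in quantity when protein kinase A and TOR are active. Loss of oxygen has its own programme: heme falls, the heme-dependent repressor Rox1 is lost, and genes for sterol uptake, sterol and unsaturated fatty acid synthesis and anaerobic cell wall mannoproteins come on.

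Totals, recovered from the steps between low values, ran from 13.57 to 17.50, in units of 1000000 reads, over the 4 libraries. All values printed as RPKM include the 1 read that the authors added to each count. Replicate libraries were much closer to each other than the strains were: Pearson's r over the 5758 genes was 0.979 between the Y127 libraries and 0.992 between the Y22-3 libraries, against 0.781 between the 2 strain means. These correlations are across genes of the same libraries and describe likeness only. The median gene differed by 0.237 (log2, after centring) between the Y127 libraries and by 0.191 between the Y22-3 libraries, against 1.19 between strains. RPKM values are shares of a library, so fewer cells and less RNA per cell cannot be told apart.

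In anaerobic xylose the 2 strains differed across most of the transcriptome although neither was growing. Y127 had more RNA from genes of growth, namely glycolysis, ribosome assembly, translation and the cell cycle. It also had more from many oxygen-limitation genes such as DAN1, ANB1 and OLE1, but less from the hypoxic isoforms CYC7 and COX5B. Y22-3 had more from stress, stationary-phase, respiration and protein breakdown genes, and its single most abundant transcript was the stress gene HSP12. On the deposited values, 3512 of 5758 genes were higher in Y127 (61.0% of genes) and 1195 were lower (20.8%), by limma with a shared spread over the 12 duplicated groups and an adjusted p under 0.05. With 2 libraries a group, an exact permutation test of a single gene cannot go below p = 0.333, so these calls rest on the spread shared across groups and genes. The median gene was 1.11 log2 units higher in Y127, and the 4 possible library pairs gave medians between 0.864 and 1.294.

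That median shift was large enough to move calls, so each library was also centred on its own median over the tested genes. After centring, 2535 genes were higher (44.0%) and 2245 were lower (39.0%), with a median of 0.15. The same direction was called on both scales for 2535 higher and 1195 lower genes. A further 803 genes called higher on deposited values were not called after centring, 174 turned to lower, and 876 not called on deposited values were lower once centred. At 2-fold or more, 2988 genes were higher and 805 lower as deposited, and 1714 were higher and 1630 lower after centring. Deposited values compare a gene's share of the library, and centred values compare it with the typical gene. Below, a gene is called higher or lower where both scales agree, unless a scale is named. Group counts are to be read beside the shares over all genes: 61.0% higher and 20.8% lower as deposited, 44.0% and 39.0% centred.

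**Figure D1:**
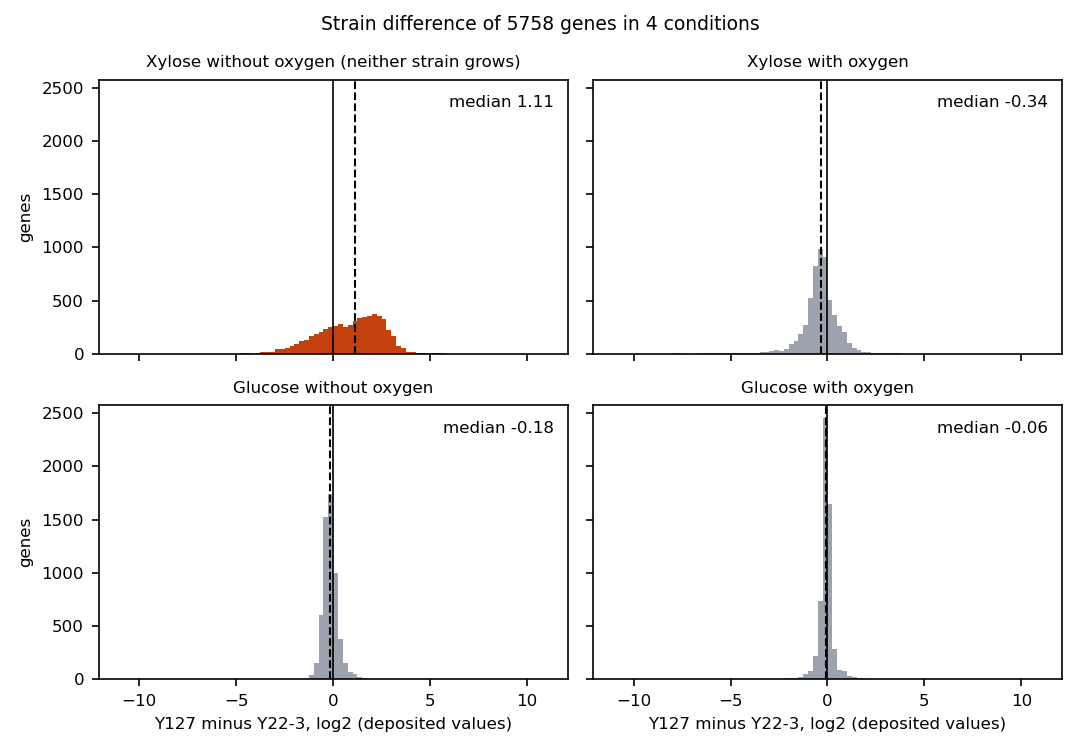
Histograms of the strain difference (Y127 minus Y22-3, log2, deposited values; number of genes on the vertical axis) for the same 5758 genes in 4 conditions, with the median as a dashed line. Anaerobic xylose has the widest spread and a median of 1.11, whereas the medians lie at -0.34 in aerobic xylose, -0.18 in anaerobic glucose and -0.06 in aerobic glucose.

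The mutated genes were examined first. ISU1 had 174 and 304 RPKM in Y127, against 2415 and 2984 RPKM in Y22-3. The difference was -3.54 ± 0.23 (log2, SE) as deposited and -4.50 ± 0.23 after centring, with adjusted p = 5.5e-11 and 5.4e-11. Every Y127 library was thus far below every Y22-3 library. HOG1 had 45.4 and 58.9 RPKM in Y127, against 79.8 and 71.7 RPKM in Y22-3, a difference of -0.55 ± 0.15 as deposited (adjusted p = 0.0021) that was no longer called without Y127 library A (-0.36, adjusted p = 0.0525). The HOG1 call was also lost in a limma fit of only the libraries compared (-0.55, adjusted p = 0.0546). After centring the HOG1 difference was -1.51 ± 0.11. A transcript level does not test the loss of function of either protein.

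The engineered genes did not move together. CpXylA had 19282 and 16509 RPKM in Y127, against 3463 and 3165 RPKM in Y22-3 (log2 difference 2.43 ± 0.30, and 1.47 ± 0.29 centred). TAL1, counted together with the native copy of the gene, had 519 and 364 RPKM in Y127, against 83.3 and 67.4 RPKM in Y22-3. PsXyl3 was lower, with 99.5 and 118 RPKM in Y127 and 167 and 157 RPKM in Y22-3 (-0.58 ± 0.20, adjusted p = 0.01), a call on deposited values that was lost without Y127 library A (-0.45, adjusted p = 0.0892) or Y22-3 library A (-0.54, adjusted p = 0.0526). kanR had 1895 and 1988 RPKM in Y127 and 2528 and 2482 RPKM in Y22-3, which was not called as deposited (-0.37 ± 0.23, adjusted p = 0.14) and was lower after centring (-1.33 ± 0.20).

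The most abundant transcripts of the 2 strains were different kinds of gene. In Y127 the top 5 were TDH1 and TDH3 (glyceraldehyde-3-phosphate dehydrogenase), CpXylA, ADH1 (alcohol dehydrogenase) and CCW12 (a cell wall mannoprotein). In Y22-3 they were HSP12, DDR2, SPI1, HOR7 and HSP26, all known as stress or stationary-phase genes. HSP12 alone made up 0.07 and 0.25% of summed RPKM in Y127, against 9.81 and 11.53% in Y22-3. TDH1 made up 6.42 and 4.8% in Y127, against 0.51 and 0.48% in Y22-3. CCW12 had 11903 and 7809 RPKM in Y127 and 5989 and 6343 RPKM in Y22-3, which did not pass the test on either scale (0.65 ± 0.44 as deposited, -0.31 ± 0.46 centred).

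Among genes with a mean of at least 10 RPKM, the largest increases in Y127 included genes that yeast normally keeps for life without oxygen. ANB1, a translation factor of the eIF5A family used without oxygen, had 356 and 209 RPKM in Y127, against 1.08 and 0.906 RPKM in Y22-3 (8.10 ± 0.51 as deposited, 7.14 ± 0.56 centred). DAN1, an anaerobic cell wall mannoprotein, had 417 and 208 RPKM in Y127, against 0.955 and 2.26 RPKM in Y22-3. FRD1, a fumarate reductase that reoxidises cofactors without oxygen, had 253 and 191 RPKM in Y127, against 7.04 and 3.17 RPKM in Y22-3. In Y22-3 none of these 3 genes stood above 7.04 RPKM.

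TIP1, FDH1, PCL1 and EGT2 were also among the highest 12. TIP1, a cell wall mannoprotein, had 10742 and 6965 RPKM in Y127, against 60.0 and 38.5 RPKM in Y22-3 (7.49 ± 0.28, and 6.53 ± 0.33 centred). FDH1, formate dehydrogenase, had 162 and 80.3 RPKM in Y127, against 0.758 and 0.597 RPKM in Y22-3. Near-identical copies of some of these genes exist in yeast (FDH1, ANB1 and the DAN and TIR family), and how the authors' counting divided shared reads is not known. PCL1, a G1 cyclin, had 37.0 and 24.1 RPKM in Y127, against 0.340 and 1.09 RPKM in Y22-3. EGT2, a cell wall protein of daughter separation, had 96.1 and 71.6 RPKM in Y127, against 2.06 and 1.51 RPKM in Y22-3. The remaining members of the 12 were PLB2, INA1, IZH4 and the Y22-3 loci GTK30P00120 and GTK30N03930, which carry no gene name in the table.

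The 12 genes with the largest decreases were led by ALD3, a stress-induced aldehyde dehydrogenase. ALD3 had 9.51 and 20.0 RPKM in Y127, against 2108 and 2128 RPKM in Y22-3 (-7.26 ± 0.35 as deposited, -8.22 ± 0.35 centred). Its close copy ALD2, with which it may share reads, had 17.1 and 30.5 RPKM in Y127, against 85.9 and 75.6 RPKM in Y22-3. STR3, a sulfur amino acid enzyme, had 0.892 and 2.79 RPKM in Y127, against 202 and 173 RPKM in Y22-3 (-6.89 ± 0.36 as deposited). RRT8, a protein of spore wall formation and lipid droplets, had 6.49 and 13.1 RPKM in Y127, against 580 and 750 RPKM in Y22-3. Library B of Y127 was above library A for each of the 12 except YMR175W-A, an uncharacterised gene with 41.0 RPKM in library A and 40.5 RPKM in library B. The rule that chose the highest and the lowest 12 took only genes whose strains did not overlap. None of the 12 highest or 12 lowest genes with an annotated position overlaps another annotated gene.

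**Figure D2:**
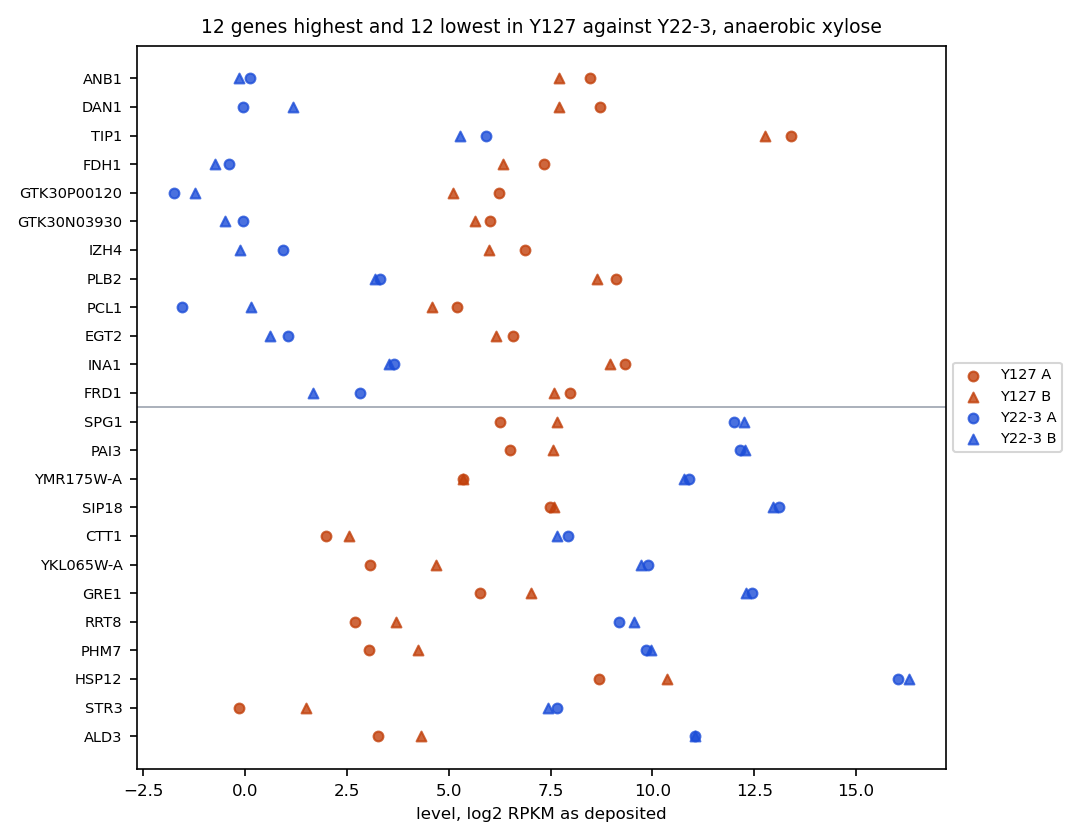
Level of the 12 genes highest and 12 lowest in Y127 against Y22-3, in log2 RPKM as deposited on the horizontal axis, with 1 point for each library (Y127 in orange, Y22-3 in blue, library A as circles and library B as triangles). The genes were chosen with no overlap between the strains as a condition, and ANB1 at the top has 356 and 209 RPKM in Y127, against 1.08 and 0.906 RPKM in Y22-3.

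General stress and stationary-phase genes showed the strongest decrease of any group. Of 22 measured members, 19 were lower and 2 higher in Y127 as deposited, and 20 were lower and 2 higher after centring, with a median difference of -3.24 as deposited and -4.20 centred, beside 1.11 and 0.15 over all genes. Together they made up 1.224 and 1.989% of summed RPKM in Y127, against 21.035 and 22.611% in Y22-3. HSP12, a small membrane-associated heat shock protein, had 414 and 1322 RPKM in Y127, against 66913 and 80740 RPKM in Y22-3 (-6.63 ± 0.79 as deposited). The 2 Y127 libraries differed by more for this gene than the Y22-3 libraries did, and both remained far below Y22-3. CTT1, the cytosolic catalase, had 3.97 and 5.81 RPKM in Y127, against 242 and 203 RPKM in Y22-3 (-5.53 ± 0.29). GRE1, a stress-induced hydrophilin, had 54.1 and 128.5 RPKM in Y127, against 5545 and 4998 RPKM in Y22-3. SNZ1, a vitamin B6 enzyme of stationary phase, had 14.7 and 29.9 RPKM in Y127 and 18 and 16.7 RPKM in Y22-3 and was not called as deposited (0.27 ± 0.26), but was lower after centring (-0.69 ± 0.21).

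The promoters of HSP12 and CTT1 are shown because both hold the stress response element through which Msn2 and Msn4 act. The windows run from 250 bases before to 50 bases after the gene's start, which is the start codon in this annotation, and were read from RefSeq's R64 assembly of the laboratory strain S288C, not from the Y22-3 genome. HSP12 lies on the plus strand at chrVI:107006-107305 and CTT1 on the plus strand at chrVII:654384-654683. The capitals mark the element AGGGG, which reads CCCCT on the strand shown.
HSP12: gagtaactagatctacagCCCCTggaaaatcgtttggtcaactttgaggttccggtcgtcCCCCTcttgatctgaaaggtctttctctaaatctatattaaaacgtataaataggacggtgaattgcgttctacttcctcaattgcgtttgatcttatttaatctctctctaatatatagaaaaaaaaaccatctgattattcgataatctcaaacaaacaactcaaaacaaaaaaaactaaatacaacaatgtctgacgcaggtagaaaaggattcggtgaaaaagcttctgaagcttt
CTT1: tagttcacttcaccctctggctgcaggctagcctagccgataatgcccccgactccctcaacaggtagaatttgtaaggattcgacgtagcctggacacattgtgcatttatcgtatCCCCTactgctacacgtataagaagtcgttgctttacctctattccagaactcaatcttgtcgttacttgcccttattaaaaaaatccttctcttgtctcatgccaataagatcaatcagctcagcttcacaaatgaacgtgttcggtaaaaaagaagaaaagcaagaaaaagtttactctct
HSP12 holds 2 matches, starting at -232 and -190 from the gene's start, and CTT1 holds 1, at -133.

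The regulators of this response also differed in level. MSN2 had 23.4 and 28.7 RPKM in Y127, against 49.3 and 51.2 RPKM in Y22-3, and MSN4 had 130 and 135 RPKM in Y127, against 295 and 295 RPKM in Y22-3. Of 20 genes of the Ras and protein kinase A pathway, 5 were higher and 14 lower as deposited, and 3 were higher and 15 lower after centring. Among all genes 61.0% were higher and 20.8% lower as deposited, and 44.0% and 39.0% after centring. YAK1, a kinase that acts against protein kinase A, had 39.1 and 49.6 RPKM in Y127, against 388 and 420 RPKM in Y22-3 (-3.19 ± 0.19). GIS1, a transcription factor of stationary phase, had 63.0 and 98.2 RPKM in Y127, against 393 and 449 RPKM in Y22-3. IRA2, which switches Ras off, had 95.0 and 135 RPKM in Y127, against 326 and 328 RPKM in Y22-3 (-1.53 ± 0.17). RIM15, a kinase of entry into stationary phase, had 20.0 and 20.8 RPKM in Y127, against 11.6 and 7.86 RPKM in Y22-3, higher as deposited (1.10 ± 0.23) but not called after centring (0.14 ± 0.19). RAS1, chosen after its values were seen, ran the other way from most of the list, with 23.1 and 17.4 RPKM in Y127, against 2.58 and 1.98 RPKM in Y22-3 (3.15 ± 0.22).

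Storage sugar genes were lower in Y127. All 9 trehalose genes were lower in Y127 after centring and 7 as deposited, and all 8 glycogen genes were lower after centring and 7 as deposited. TPS1, which makes trehalose-6-phosphate, had 235 and 239 RPKM in Y127, against 1255 and 1288 RPKM in Y22-3 (-2.42 ± 0.25). NTH1, the trehalase that breaks trehalose down, was lower as well, with 67.8 and 86.5 RPKM in Y127 and 366 and 348 RPKM in Y22-3. GLG2, which primes glycogen, had 26.4 and 48.0 RPKM in Y127, against 510 and 553 RPKM in Y22-3 (-3.90 ± 0.20). GPH1, glycogen phosphorylase, had 878 and 689 RPKM in Y127 and 946 and 874 RPKM in Y22-3 and was called only after centring (-1.18 ± 0.33). TPS3, a subunit of the trehalose synthase complex, had 57.7 and 53.3 RPKM in Y127 and 46.6 and 40.1 RPKM in Y22-3. It was not called as deposited (0.36 ± 0.17, adjusted p = 0.0513), was called higher without Y22-3 library A (0.47, adjusted p = 0.0381) and was lower after centring (-0.60 ± 0.13).

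Chaperones, the proteasome and autophagy genes were also lower in Y127. Of 22 chaperone genes, 13 were lower and 4 higher as deposited, and 18 were lower and 1 higher after centring, with a median of -1.39 as deposited and -2.35 centred. HSP42, a small heat shock protein, had 50.7 and 86.5 RPKM in Y127, against 953 and 1056 RPKM in Y22-3 (-3.92 ± 0.31). SSA3, a stress-induced Hsp70, had 72.0 and 171 RPKM in Y127, against 1344 and 1264 RPKM in Y22-3. HSP10, the mitochondrial co-chaperonin, had 528 and 647 RPKM in Y127 and 338 and 304 RPKM in Y22-3, higher as deposited (0.87 ± 0.20) and not called after centring (-0.09 ± 0.16).

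The proteasome, the protease of ubiquitin-tagged proteins, was lower in Y127 for more of its genes after centring than as deposited. Of 33 subunit genes, 17 were lower and 3 higher as deposited, and 32 were lower and 1 higher after centring, with a median of -0.48 as deposited and -1.44 centred. The 3 became 1 without Y127 library B or without Y22-3 library B. RPT6, a base ATPase of the particle, had 44.3 and 74.8 RPKM in Y127, against 261 and 266 RPKM in Y22-3 (-2.20 ± 0.21, and -3.15 ± 0.17 centred). RPN11, the subunit that removes ubiquitin, had 28.0 and 48.4 RPKM in Y127, against 149 and 166 RPKM in Y22-3. RPT5 had 42.4 and 53.4 RPKM in Y127, against 36.8 and 29.2 RPKM in Y22-3. It was higher as deposited (0.54 ± 0.20), a call lost without Y127 library B (0.37, adjusted p = 0.16) or Y22-3 library B (0.37, adjusted p = 0.166), and lower after centring (-0.42 ± 0.14). The RPT6 promoter is shown because it holds the proteasome element GGTGGCAAA, bound by the transcription factor Rpn4, which is in capitals at -84 from the gene's start. The window lies on the minus strand at chrVII:411237-411536 of R64.
RPT6: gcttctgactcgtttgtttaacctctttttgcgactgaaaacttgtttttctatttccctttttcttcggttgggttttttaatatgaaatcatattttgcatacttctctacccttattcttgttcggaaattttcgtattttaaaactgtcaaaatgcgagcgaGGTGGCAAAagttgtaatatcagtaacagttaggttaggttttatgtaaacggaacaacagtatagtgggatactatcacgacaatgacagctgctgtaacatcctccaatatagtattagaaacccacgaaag

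Of 31 autophagy genes, 21 were lower and 6 higher as deposited, and 27 were lower and 3 higher after centring. ATG8, the protein that coats the growing autophagosome membrane, had 63.2 and 126.8 RPKM in Y127, against 787 and 946 RPKM in Y22-3 (-3.27 ± 0.26). ATG33, needed for the removal of mitochondria, had 97.5 and 146 RPKM in Y127, against 906 and 871 RPKM in Y22-3. ATG22, a vacuolar amino acid exporter, was the member with the smallest centred difference (0.14 ± 0.16, not called).

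Respiration genes were lower in Y127. Of 25 respiratory chain genes, 20 were lower and 2 higher as deposited, and 23 were lower and 1 higher after centring, with a median of -1.46 as deposited and -2.42 centred. QCR8, a subunit of the cytochrome bc1 complex, had 301 and 366 RPKM in Y127, against 2110 and 2610 RPKM in Y22-3 (-2.82 ± 0.22). QCR9, of the same complex, had 520 and 583 RPKM in Y127, against 3623 and 4150 RPKM in Y22-3. COX7, a cytochrome oxidase subunit, had 367 and 392 RPKM in Y127, against 2103 and 2353 RPKM in Y22-3. The single gene higher on both scales was SDH3, a membrane anchor of succinate dehydrogenase that also has a role in protein import, with 933 and 795 RPKM in Y127 and 181 and 149 RPKM in Y22-3 (2.39 ± 0.18, chosen after its values were seen).

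Among the other mitochondrial groups, ATP synthase and mitochondrial ribosomal protein genes depended more on the scale. Of 14 ATP synthase genes, 8 were lower and 3 higher as deposited, and 13 were lower and 0 higher after centring. The 3 became 1 without Y127 library A or without Y22-3 library A, and the 8 became 5 without Y127 library A, and 4 without Y127 library B or without Y22-3 library B. INH1, the inhibitor of the enzyme, had 353 and 362 RPKM in Y127, against 895 and 1034 RPKM in Y22-3 (-1.43 ± 0.20). Of 11 TCA cycle genes, 7 were lower and 3 higher as deposited, and 8 were lower and 2 higher after centring. KGD2, of the alpha-ketoglutarate dehydrogenase complex, had 236 and 261 RPKM in Y127, against 1030 and 1228 RPKM in Y22-3 (-2.18 ± 0.17). Of 66 mitochondrial ribosomal protein genes, 33 were higher and 11 lower as deposited, whereas 15 were higher and 37 lower after centring, so the direction of this group turned with the scale (median 0.43 as deposited, -0.52 centred). The 11 became 6 without Y127 library A. HAP4, the activating subunit of the complex that drives respiration genes, had 146 and 234 RPKM in Y127, against 502 and 553 RPKM in Y22-3 (-1.51 ± 0.23).

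Glycolysis genes were higher in Y127 and took a larger share of its RNA. Of 18 measured members, 16 were higher and 1 lower as deposited, and 13 were higher and 2 lower after centring, with a median of 2.63 as deposited and 1.67 centred. They made up 20.674 and 16.929% of summed RPKM in Y127, against 3.063 and 2.782% in Y22-3. ENO1, an enolase, had 9728 and 7068 RPKM in Y127, against 316 and 206 RPKM in Y22-3 (5.02 ± 0.25, and 4.07 ± 0.24 centred). PGK1, phosphoglycerate kinase, had 10477 and 7793 RPKM in Y127, against 416 and 281 RPKM in Y22-3. CDC19, the main pyruvate kinase, had 4847 and 4351 RPKM in Y127, against 458 and 353 RPKM in Y22-3. PYK2, the minor pyruvate kinase, was higher as deposited (0.84 ± 0.18) and not called after centring (-0.12 ± 0.15), with 160 and 167 RPKM in Y127 and 98.7 and 83.9 RPKM in Y22-3. GLK1, glucokinase, chosen after its values were seen, was lower, with 2218 and 1951 RPKM in Y127 and 5174 and 5001 RPKM in Y22-3 (-1.29 ± 0.27). The TDH and ENO genes each have near-identical copies, so their separate values are uncertain.

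Of 14 fermentation genes, 9 were higher and 4 lower as deposited, and 5 were higher and 5 lower after centring, near the shares over all genes (61.0% and 20.8% as deposited, 44.0% and 39.0% centred), so the counts set nothing apart. ADH1, which makes ethanol, had 16717 and 11136 RPKM in Y127, against 1242 and 887 RPKM in Y22-3 (3.70 ± 0.32). ADH2, its close copy that consumes ethanol and is repressed by glucose, had 256 and 564 RPKM in Y127, against 11.7 and 9.55 RPKM in Y22-3 (5.17 ± 0.30). SFA1, a formaldehyde and long-chain alcohol dehydrogenase, had 115 and 197 RPKM in Y127, against 1038 and 1122 RPKM in Y22-3 (-2.84 ± 0.23).

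The pentose phosphate pathway, through which xylulose enters central metabolism, held paralogs that moved in opposite directions. Of 11 genes, 6 were higher and 5 lower on both scales. Over all genes 61.0% were higher and 20.8% lower as deposited, and 44.0% and 39.0% after centring. TAL1 was higher, as given above, whereas its stationary-phase paralog NQM1 had 138 and 227 RPKM in Y127, against 1963 and 2002 RPKM in Y22-3 (-3.48 ± 0.35). TKL2, the minor transketolase, had 25.8 and 19.5 RPKM in Y127, against 599 and 463 RPKM in Y22-3 (-4.55 ± 0.42). SOL4 and GND2, minor forms of 6-phosphogluconolactonase and 6-phosphogluconate dehydrogenase, were lower too (-3.13 ± 0.50 and -2.76 ± 0.38). RKI1, ribose-5-phosphate isomerase, had 9.63 and 7.02 RPKM in Y127, against 1.84 and 2.29 RPKM in Y22-3 (2.00 ± 0.33).

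Of 7 native xylose and xylitol genes measured, 2 were higher and 4 lower as deposited, and 1 was higher and 5 lower after centring. GRE3, an aldose reductase that turns xylose into xylitol, had 93.8 and 98.7 RPKM in Y127, against 188 and 164 RPKM in Y22-3 (-0.87 ± 0.16). YJR096W, a putative xylose reductase, had 68.4 and 86.3 RPKM in Y127, against 815 and 750 RPKM in Y22-3 (-3.35 ± 0.24). XYL2, a xylitol dehydrogenase, had 5.42 and 6.26 RPKM in Y127, against 26.9 and 21 RPKM in Y22-3. XKS1, the native xylulokinase, had 12.5 and 8.85 RPKM in Y127, against 5.25 and 3.91 RPKM in Y22-3, higher as deposited (1.22 ± 0.23) and not called after centring (0.26 ± 0.20). Of the 7 hexose transporter genes that passed the filter, 2 were higher and 0 lower as deposited, and 2 were higher and 1 lower after centring, with a median of 0.82 as deposited and -0.14 centred. Higher on both scales were HXT6 with 7815 and 8370 RPKM in Y127, against 1622 and 1669 RPKM in Y22-3, and HXT7 with 2721 and 2990 RPKM in Y127, against 1145 and 826 RPKM in Y22-3. HXT6 and HXT7 are nearly identical and may share reads. HXT3, a low-affinity transporter, had 10.04 and 12.7 RPKM in Y127 and 15.5 and 15.1 RPKM in Y22-3, not called as deposited (-0.44 ± 0.24, adjusted p = 0.0973) and lower after centring (-1.40 ± 0.25, adjusted p = 8.13e-05).

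Regulators of sugar repression were mostly lower. Of 17 genes, 6 were higher and 9 lower as deposited, and 1 was higher and 11 lower after centring. Among all genes 61.0% were higher and 20.8% lower as deposited, and 44.0% and 39.0% after centring. CAT8, an activator of gluconeogenesis genes, had 32.9 and 55.8 RPKM in Y127, against 335 and 346 RPKM in Y22-3 (-2.99 ± 0.29). MTH1, a repressor of hexose transporter genes, had 70.1 and 97.3 RPKM in Y127, against 218 and 202 RPKM in Y22-3. AZF1, a zinc finger activator, had 17.2 and 24.2 RPKM in Y127, against 34.3 and 30.8 RPKM in Y22-3 (-0.67 ± 0.18), a call on deposited values that was lost without Y127 library A (-0.43, adjusted p = 0.0583). SNF4, a subunit of the Snf1 kinase that releases glucose repression, was higher as deposited (1.03 ± 0.16) and not called after centring (0.07 ± 0.09).

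**Figure D3:**
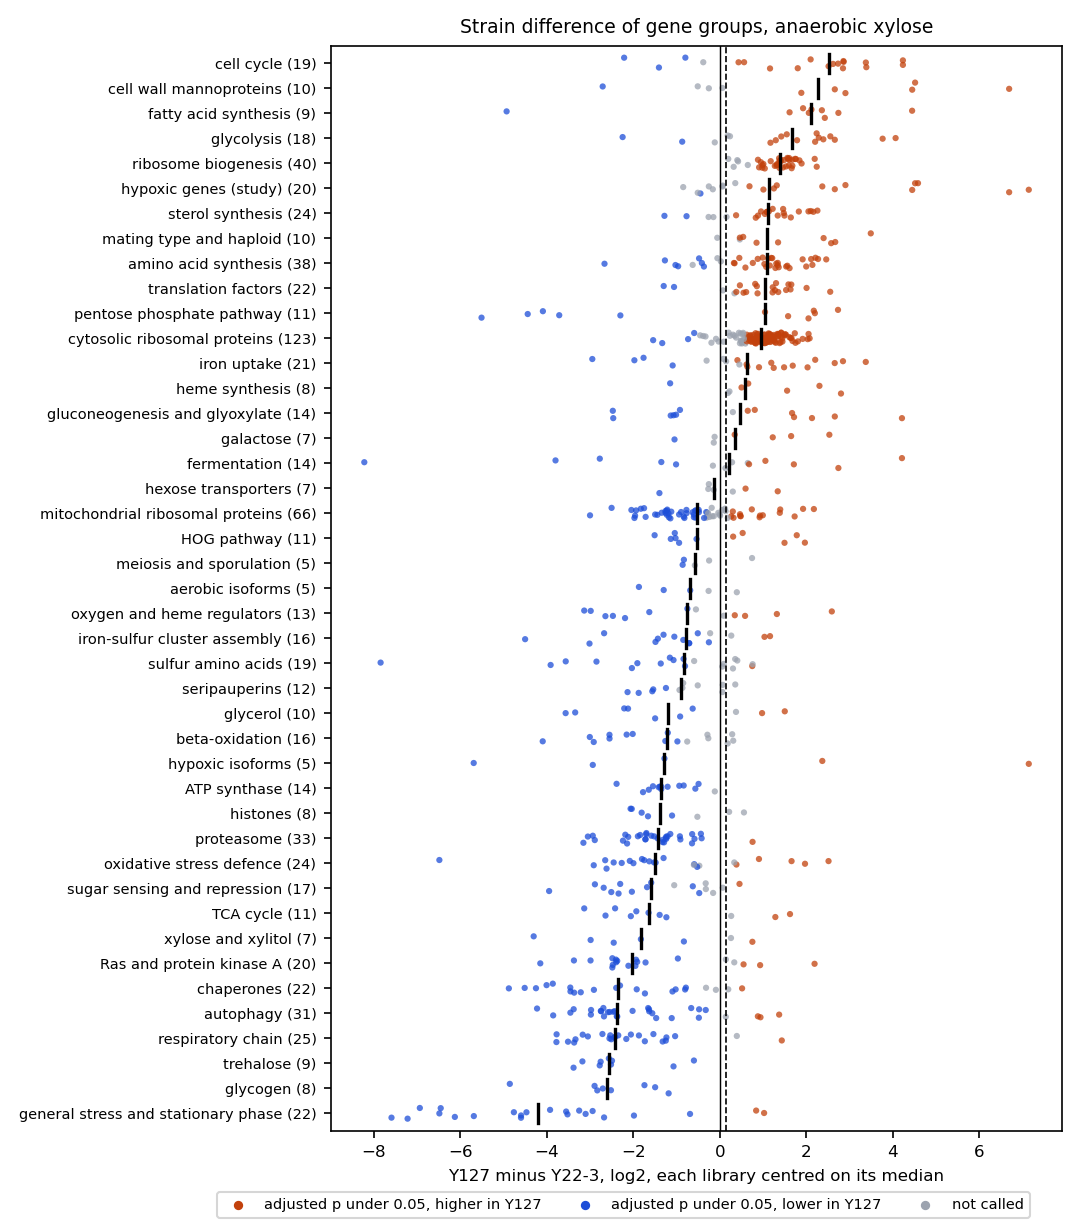
Strain difference in anaerobic xylose (Y127 minus Y22-3, log2, each library centred on its median) for every measured member of 43 gene groups, with the number of members in brackets, the group median as a bar and the median of all genes (0.152) as a dashed line. Orange points are genes higher in Y127, blue points are genes lower in Y127 and grey points were not called; cell cycle genes lie at the top with a median of 2.52 and stress genes at the bottom with -4.20.

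Ribosome and translation genes were higher in Y127. All 40 ribosome biogenesis genes were higher as deposited and 35 of them after centring, with 0 lower on either scale and a median of 2.34 as deposited and 1.38 centred. SOF1, a factor of small-subunit assembly, had 9.93 and 10.6 RPKM in Y127, against 1.59 and 0.835 RPKM in Y22-3 (3.15 ± 0.27). NOP10, of the box H/ACA particles that modify ribosomal RNA, had 143 and 142 RPKM in Y127, against 20.3 and 11.8 RPKM in Y22-3. RRN3, which brings RNA polymerase I to the ribosomal DNA, had the smallest centred difference (0.20 ± 0.12, not called). The SOF1 promoter is shown because it holds the PAC element GATGAG, common before ribosome biogenesis genes, in capitals at -82 from the gene's start. The window lies on the plus strand at chrXII:127273-127572 of R64.
SOF1: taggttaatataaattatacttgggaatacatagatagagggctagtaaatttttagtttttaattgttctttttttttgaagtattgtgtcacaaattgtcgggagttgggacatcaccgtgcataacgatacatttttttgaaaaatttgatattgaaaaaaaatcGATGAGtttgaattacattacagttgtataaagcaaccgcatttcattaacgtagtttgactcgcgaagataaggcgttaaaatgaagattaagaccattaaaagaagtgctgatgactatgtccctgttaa

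Of 123 cytosolic ribosomal protein genes, 117 were higher and 1 lower as deposited, and 93 were higher and 4 lower after centring. The 1 lower gene was no longer called when any of the 4 libraries was left out. The group made up 5.944 and 4.612% of summed RPKM in Y127, against 1.266 and 1.211% in Y22-3. RPS28B had 267 and 172 RPKM in Y127, against 27.7 and 24.7 RPKM in Y22-3 (3.04 ± 0.23). RPL35A had 98.8 and 73.1 RPKM in Y127, against 11.2 and 9.97 RPKM in Y22-3. Most ribosomal protein genes exist as close pairs, so values of single copies are uncertain. Of 22 translation factor genes, 20 were higher and 0 lower as deposited, and 18 were higher and 2 lower after centring; EFT2, elongation factor 2, had 97 and 68.1 RPKM in Y127, against 7.23 and 7.03 RPKM in Y22-3.

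Amino acid synthesis genes were higher for the most part. Of 38 genes, 33 were higher and 1 lower as deposited, and 28 were higher and 7 lower after centring. ARG3, an arginine enzyme, had 154 and 137 RPKM in Y127, against 14.4 and 12.8 RPKM in Y22-3 (3.42 ± 0.24). ILV5, of branched-chain amino acid synthesis, had 608 and 484 RPKM in Y127, against 58.6 and 62.1 RPKM in Y22-3. LYS20, homocitrate synthase of the lysine pathway, was lower, with 51.7 and 71.2 RPKM in Y127 and 221 and 178 RPKM in Y22-3 (-1.71 ± 0.22). The sulfur amino acid list had 7 of 19 genes higher and 7 lower as deposited and 1 higher and 11 lower after centring. MET2, homoserine acetyltransferase, had 18.9 and 10.2 RPKM in Y127, against 140 and 82.8 RPKM in Y22-3 (-2.95 ± 0.33).

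Cell cycle genes had the highest median of the 43 groups, although the strain was not growing. Of 19 measured, 16 were higher and 1 lower as deposited, and 15 were higher and 3 lower after centring, with a median of 3.47 as deposited and 2.52 centred. RNR4, a subunit of ribonucleotide reductase, which makes deoxynucleotides for replication, had 840 and 703 RPKM in Y127, against 24.3 and 18.2 RPKM in Y22-3 (5.19 ± 0.21). CLN1, a G1 cyclin, had 47.1 and 37.1 RPKM in Y127, against 2.02 and 2.09 RPKM in Y22-3 (4.35 ± 0.37). FAR1, an inhibitor of the G1 cyclin kinase, was higher as well, with 25.6 and 19.3 RPKM in Y127 and 1.15 and 1.06 RPKM in Y22-3. SIC1, an inhibitor of the S-phase cyclin kinase, chosen after its values were seen, was lower, with 20.6 and 34.0 RPKM in Y127 and 68.2 and 58.4 RPKM in Y22-3 (-1.26 ± 0.23). CLB6, an S-phase cyclin, had 96 and 62 reads in Y127, against 2 and 1 reads in Y22-3, and since the Y22-3 counts are under a floor of 3 reads no fold is given.

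Of 8 histone genes measured, 2 were higher and 4 lower as deposited, and 0 were higher and 5 lower after centring. The 2 became 1 without Y127 library A. HHT1, histone H3, had 524 and 458 RPKM in Y127, against 1017 and 1054 RPKM in Y22-3 (-1.08 ± 0.20). HTZ1, the variant of H2A that is made outside S phase, had 144 and 146 RPKM in Y127, against 67.3 and 61.5 RPKM in Y22-3, higher as deposited (1.17 ± 0.18) and not called after centring (0.21 ± 0.14).

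Many genes of oxygen limitation, but not all, were higher in Y127 although both strains lacked oxygen. Of 21 hypoxic genes used by the study as a reference list, 20 passed the filter, of which 16 were higher and 0 lower as deposited and 12 were higher and 1 lower after centring, with a median of 2.09 as deposited and 1.13 centred. The study picked this list, so its direction is not independent evidence. Among the 10 cell wall mannoprotein genes, which overlap that list, 7 were higher and 1 lower as deposited and 6 were higher and 1 lower after centring. Both lists stand beside 61.0% of all genes higher and 20.8% lower as deposited, and 44.0% and 39.0% after centring. The 7 of 10 as deposited is near that share. TIR1 had 919 and 507 RPKM in Y127, against 14.1 and 16.8 RPKM in Y22-3 (5.47 ± 0.36). TIR3 had 218 and 149 RPKM in Y127, against 4.43 and 4.07 RPKM in Y22-3 (5.41 ± 0.21). The seripauperins, a family of near-identical anaerobic wall proteins, numbered 12 that passed the filter, of which 1 was higher and 0 lower as deposited, and 0 were higher and 5 lower after centring. As deposited, 0 were higher without Y127 library A and 1 was lower without Y127 library B.

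The ANB1 promoter is shown because ANB1 had the largest increase and is a textbook target of Rox1. The window lies on the minus strand at chrX:525332-525631 of R64, with the core of the Rox1 site, ATTGTT, in capitals at -214 and -193 from the gene's start.
ANB1: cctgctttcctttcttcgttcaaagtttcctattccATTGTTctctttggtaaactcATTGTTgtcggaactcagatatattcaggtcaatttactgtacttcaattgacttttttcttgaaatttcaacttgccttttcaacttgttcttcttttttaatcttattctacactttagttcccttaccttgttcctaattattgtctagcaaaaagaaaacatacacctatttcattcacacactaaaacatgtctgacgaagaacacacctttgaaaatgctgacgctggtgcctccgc
ROX1 itself had 7.16 and 10.2 RPKM in Y127, against 32.9 and 37.1 RPKM in Y22-3 (-2.03 ± 0.48). MOT3, a second repressor of hypoxic genes, had 1.53 and 2.77 RPKM in Y127, against 10.2 and 8.50 RPKM in Y22-3 (-2.18 ± 0.23). MGA2, a membrane sensor that activates OLE1, had 70.5 and 57.8 RPKM in Y127, against 6.52 and 4.57 RPKM in Y22-3 (3.55 ± 0.18). HAP1, the heme-responsive activator, had 76.1 and 80.6 RPKM in Y127 and 41.5 and 34.6 RPKM in Y22-3, higher as deposited (1.05 ± 0.15) and not called after centring (0.09 ± 0.18). Of the 13 oxygen and heme regulators, 5 were higher and 6 lower as deposited, and 4 were higher and 7 lower after centring. The shares of all genes were 61.0% and 20.8% as deposited, and 44.0% and 39.0% after centring.

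Isoform pairs of which yeast uses one with oxygen and the other without did not switch together. Of 5 hypoxic isoforms, 2 were higher and 3 lower on both scales. The 3 became 2 as deposited with the replicate block or in a fit of only the libraries compared. The call lost there was that of HMG2, whose difference was -0.32. HMG2 was also no longer called without Y127 library A (-0.30) or Y22-3 library A (-0.25). ANB1 and AAC3, the anaerobic ADP/ATP carrier, were higher, AAC3 with 7.50 and 5.74 RPKM in Y127 and 0.804 and 0.531 RPKM in Y22-3 (3.33 ± 0.31). CYC7, the hypoxic cytochrome c, was lower, with 38.5 and 79.1 RPKM in Y127 and 1431 and 1508 RPKM in Y22-3 (-4.73 ± 0.48). COX5B, the hypoxic cytochrome oxidase subunit, was lower too, with 84.3 and 86.6 RPKM in Y127 and 325 and 349 RPKM in Y22-3 (-1.98 ± 0.26). Of 5 aerobic isoforms, 2 were higher and 1 lower as deposited, and 0 were higher and 3 lower after centring. HYP2, the aerobic counterpart of ANB1 and close to it in sequence, had 153 and 153 RPKM in Y127 and 198 and 189 RPKM in Y22-3, not called as deposited (-0.34 ± 0.21) and lower after centring (-1.30 ± 0.18).

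Most genes of lipid and heme synthesis, some steps of which need oxygen, had more RNA in Y127. Of 24 sterol synthesis genes, 22 were higher and 1 lower as deposited, and 19 were higher and 2 lower after centring. The 1 lower gene was no longer called without Y127 library A, without Y22-3 library A, with the replicate block or in a fit of only the libraries compared. ERG5, a desaturase of the last steps to ergosterol, had 91.6 and 64.6 RPKM in Y127, against 8.37 and 8.19 RPKM in Y22-3 (3.21 ± 0.20). PDR11, a sterol importer used without oxygen, had 34.5 and 38.1 RPKM in Y127, against 7.98 and 7.02 RPKM in Y22-3 (2.28 ± 0.19). Of 9 fatty acid synthesis genes, 8 were higher and 1 lower on both scales. OLE1, the fatty acid desaturase of yeast, had 935 and 811 RPKM in Y127, against 26.1 and 16.2 RPKM in Y22-3 (5.40 ± 0.29). FAA1, a fatty acid activating enzyme, was the member that fell, with 8.22 and 28.9 RPKM in Y127 and 232 and 252 RPKM in Y22-3 (-3.97 ± 0.57). Of 8 heme synthesis genes, 7 were higher and 0 lower as deposited, and 5 were higher and 1 lower after centring. HEM13, an oxygen-requiring enzyme of heme synthesis, had 656 and 459 RPKM in Y127, against 37.9 and 43.3 RPKM in Y22-3 (3.76 ± 0.28). HEM1, the first enzyme of that pathway, had 440 and 405 RPKM in Y127 and 442 and 525 RPKM in Y22-3, not called as deposited (-0.19 ± 0.16) and lower after centring (-1.15 ± 0.18).

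Iron uptake genes of yeast are known targets of the transcription factor Aft1. Of 21 iron uptake genes, 17 were higher and 3 lower as deposited, and 13 were higher and 4 lower after centring. This list and the cluster assembly list below stand beside 61.0% and 20.8% of all genes as deposited, and 44.0% and 39.0% after centring. FIT2, a cell wall mannoprotein that holds iron siderophores, had 3366 and 3819 RPKM in Y127, against 265 and 120 RPKM in Y22-3 (4.33 ± 0.27). FTR1, the high-affinity iron permease, had 50.8 and 64.6 RPKM in Y127, against 4.56 and 4.8 RPKM in Y22-3 (3.62 ± 0.18). MRS4, a mitochondrial iron carrier, was lower, with 27.5 and 46.9 RPKM in Y127 and 150 and 136 RPKM in Y22-3 (-1.99 ± 0.19). Of 16 genes of iron-sulfur cluster assembly, 5 were higher and 5 lower as deposited, and 2 were higher and 12 lower after centring. Without Y127 library A the deposited counts were 9 higher and 3 lower, and without Y22-3 library A 3 were lower. NFS1, the cysteine desulfurase that supplies the sulfur, had 120 and 189 RPKM in Y127, against 492 and 500 RPKM in Y22-3 (-1.72 ± 0.17). ISA1, needed for later clusters, had 22 and 27.5 RPKM in Y127, against 106 and 98.9 RPKM in Y22-3 (-2.06 ± 0.19).

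Of 11 genes of the HOG pathway, 6 were higher and 1 lower as deposited, the lower one being HOG1, and 5 were higher and 6 lower after centring, beside 61.0% and 20.8% of all genes as deposited and 44.0% and 39.0% centred. Without Y127 library A, 0 were lower as deposited. SSK22, a kinase above Hog1, had 7.71 and 8.08 RPKM in Y127, against 1.17 and 0.921 RPKM in Y22-3 (2.92 ± 0.20). SHO1, a membrane sensor of the pathway, had 17.7 and 17.3 RPKM in Y127, against 2.59 and 2.67 RPKM in Y22-3 (2.74 ± 0.16). Of 10 glycerol genes, 4 were higher and 5 lower as deposited, and 2 were higher and 7 lower after centring. The 5 became 3 without Y127 library A or without Y22-3 library A. GPD1, the enzyme of glycerol synthesis induced by Hog1, had 485 and 449 RPKM in Y127, against 1059 and 1033 RPKM in Y22-3 (-1.17 ± 0.19). STL1, a glycerol importer induced by Hog1, had 0.328 and 0.862 RPKM in Y127, against 3.91 and 2.69 RPKM in Y22-3.

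Further groups held called genes of both directions. Of 24 oxidative stress genes, 6 were higher and 13 lower as deposited, and 5 were higher and 16 lower after centring. TSA2, a stress-induced peroxiredoxin, had 31.3 and 28.7 RPKM in Y127, against 92.0 and 102 RPKM in Y22-3. Of 14 gluconeogenesis and glyoxylate genes, 8 were higher and 2 lower as deposited, and 7 were higher and 6 lower after centring. Over all genes 61.0% were higher and 20.8% lower as deposited, and 44.0% and 39.0% after centring, so these counts set nothing apart. ATO3, a putative ammonium exporter, had 184 and 192 RPKM in Y127, against 16.1 and 14.5 RPKM in Y22-3 (3.62 ± 0.23). MDH2, cytosolic malate dehydrogenase, had 61.7 and 77.2 RPKM in Y127, against 197 and 198 RPKM in Y22-3 (-1.52 ± 0.23). ADY2, an acetate transporter, had 32.6 and 146 RPKM in Y127, against 177 and 217 RPKM in Y22-3, and its call (-1.51 ± 0.51) was lost without Y127 library A (-0.43, adjusted p = 0.417) or Y22-3 library B (-1.36, adjusted p = 0.0657), which left 1 gene of the list lower in each case. Of 16 beta-oxidation genes, 4 were higher and 7 lower as deposited, and 0 were higher and 10 lower after centring.

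All 10 mating-type and haploid genes that passed the filter were higher as deposited and 8 of them after centring, beside 61.0% and 44.0% of all genes. The call of FUS1 was lost in a limma fit of only the libraries compared (0.90, adjusted p = 0.0907). It was also lost in limma fits with 1 RPKM added (0.44, adjusted p = 0.106) and with centring on the 75th percentile (0.63, adjusted p = 0.076). The same held without Y127 library A (0.78), Y127 library B (1.02) or Y22-3 library B (0.67). The 10 included genes known as specific to each mating type. MFA2, a pheromone gene of a cells, had 1177 and 644 RPKM in Y127, against 85.5 and 84.4 RPKM in Y22-3 (3.36 ± 0.41), and STE3, a pheromone receptor gene of alpha cells, had 6.71 and 8.19 RPKM in Y127, against 0.728 and 0.564 RPKM in Y22-3 (3.53 ± 0.45). Of the 5 meiosis genes that passed the filter, 1 was higher and 0 lower as deposited and 0 were higher and 2 lower after centring, and without Y127 library A the 1 became 2. IME1, the inducer of meiosis, stood at 2.30 and 3.27 RPKM in Y127 and 3.38 and 1.87 RPKM in Y22-3. Of 7 galactose genes, 5 were higher and 0 lower as deposited, and 4 were higher and 1 lower after centring. The shares over all genes were 61.0% and 20.8% as deposited, and 44.0% and 39.0% after centring. GAL1 (galactokinase) had 6.49 and 7.25 RPKM in Y127 and 1.26 and 1.0 RPKM in Y22-3.

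The same 2 strains were then compared in aerobic xylose and in anaerobic glucose, with other libraries, to see where the difference in anaerobic xylose stood apart. The difference of the strain differences was higher in anaerobic than in aerobic xylose for 3768 genes as deposited (65.4%) and lower for 520 (9.03%). After centring these counts were 1877 (32.6%) and 1992 (34.6%). Against anaerobic glucose, 3451 genes were higher (59.9%) and 1003 lower (17.4%) as deposited, and 2363 were higher (41.0%) and 2111 lower (36.7%) after centring. In anaerobic glucose the strains themselves differed at only 32 genes higher and 74 lower as deposited, or 177 and 121 after centring. In aerobic xylose 598 genes were higher and 2254 lower in Y127 as deposited, and 1644 higher and 1234 lower after centring. Y127 library B of aerobic xylose had a median of 3.61 log2 RPKM over all genes, against 4.08 in library A. Its summed RPKM was 532248, against 709508 in A. The deposited comparisons with aerobic xylose include library B, and its effect on their counts was not tested.

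Groups fell into several kinds by this comparison. Their counts are given after centring. Over all genes, 32.6% had a higher and 34.6% a lower strain difference in anaerobic than in aerobic xylose on that scale. Ribosome biogenesis and stress genes had medians of the same sign in both xylose conditions: 1.38 and 1.46 (log2, centred) in anaerobic and aerobic xylose for ribosome biogenesis, and -4.20 and -3.26 for stress genes. Of 40 ribosome biogenesis genes, 3 had a higher and 6 a lower strain difference in anaerobic than in aerobic xylose after centring. Cell cycle, respiratory chain, chaperone and proteasome genes had centred medians farther from 0 in anaerobic than in aerobic xylose. Of 19 cell cycle genes, 15 had a higher and 2 a lower strain difference in anaerobic xylose, and the medians were 2.52 and 0.18. Of 25 respiratory chain genes, 2 had a higher and 19 a lower strain difference, with medians of -2.42 and -0.22. Of 22 chaperone genes, 0 had a higher and 19 a lower one (medians -2.35 and 0.04). Of 33 proteasome genes, 1 had a higher and 29 a lower one (medians -1.44 and -0.16).

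Genes of growth on nonfermentable carbon behaved differently again. Gluconeogenesis and glyoxylate genes had a centred median of 0.47 in anaerobic xylose, against -5.28 in aerobic xylose, and all 14 had a higher strain difference in anaerobic xylose. Beta-oxidation genes had -1.23 in anaerobic xylose, against -4.02 in aerobic xylose, with 15 of 16 higher. Both counts stand beside 32.6% of all genes higher and 34.6% lower in this contrast after centring. FDH1 was the single gene with the largest such contrast among those of at least 10 RPKM: the strain difference was 7.40 ± 0.54 in anaerobic xylose and, after centring, 6.45 ± 0.55, against -7.11 centred in aerobic xylose. ADH2 likewise had a centred strain difference of 4.21 ± 0.32 in anaerobic xylose and -6.65 in aerobic xylose. At the other end HSP30, a plasma membrane stress protein, had -3.22 ± 0.68 in anaerobic xylose and 3.88 in aerobic xylose, and CYC7 had -5.69 ± 0.48 and 0.02.

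**Figure D4:**
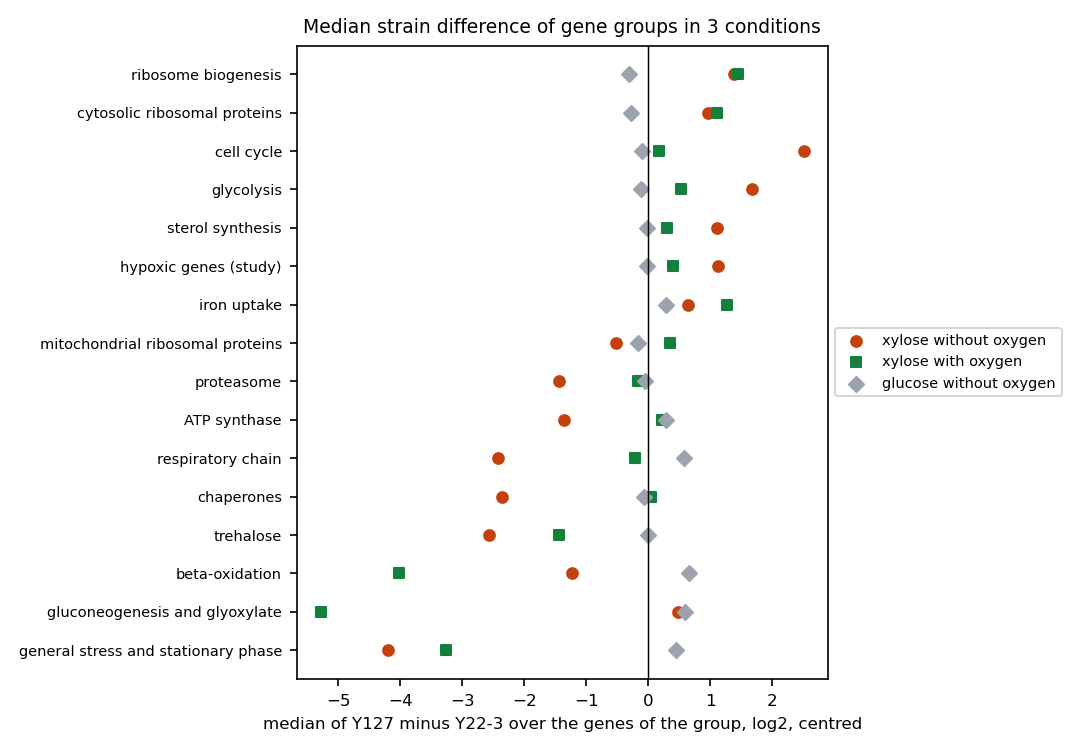
Median strain difference (Y127 minus Y22-3, log2, centred) of 16 gene groups in anaerobic xylose (orange circles), aerobic xylose (green squares) and anaerobic glucose (grey diamonds). The stress group has -4.20 and -3.26 in the xylose conditions and 0.46 in anaerobic glucose, and the cell cycle group has 2.52 in anaerobic xylose, against 0.18 in aerobic xylose.

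Sequence elements were searched in the 5425 promoter windows that could be read for tested genes, on both strands, in windows of 300 bases. The 9 motifs were the stress response element (STRE, AGGGG), PAC (GATGAG), RRPE (AAAATTTT), the CCAAT box of the Hap complex, the Rox1 core (ATTGTT), a sterol element of Upc2 and Ecm22 (TCGTATA), the Azf1 element (AAAAGAAA), the proteasome element (GGTGGCAAA) and the heat shock element of Hsf1 (GAANNTTC). RRPE and the heat shock element are their own reverse complements. Matches are a description and show no binding.

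STRE was in 12.9% of the 1628 promoters of genes at least 2-fold higher in Y127 and in 35.9% of the 1550 promoters of genes at least 2-fold lower, against 21.9% of all 5425. Among the 88 promoters of genes at least 16-fold lower, a limit chosen after the values were seen, STRE was in 69.3%, against 14.3% of the 21 promoters of genes at least 16-fold higher. The 22 promoters of the general stress and stationary-phase list held STRE in 40.9%, and the 25 respiratory chain promoters in 48.0%. PAC was in 25.6% of promoters of genes at least 2-fold higher and 14.6% of those at least 2-fold lower, against 20.0% of all, and RRPE was in 16.1% and 4.19%, against 9.36% of all. At the 16-fold limit the order was the other way for PAC, which was in 14.3% of the 21 higher and 23.9% of the 88 lower promoters, and RRPE was in 4.76% and 2.27%. The 40 ribosome biogenesis promoters held PAC in 97.5% and RRPE in 90.0%. The proteasome element was in 0.307% of promoters of genes at least 2-fold higher and 2.65% of those at least 2-fold lower, against 1.29% of all, and in 81.8% of the 33 proteasome promoters; at the 16-fold limit it was in 0 of 21 higher and 1 of 88 lower promoters.

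The other elements differed less between higher and lower genes. The CCAAT box was in 46.8% of promoters of genes at least 2-fold higher and in 41.5% of those at least 2-fold lower, against 44.1% of all, although 80.0% of the 25 respiratory chain promoters held it. In the same order of groups, the Rox1 core was in 37.9% and 32.6%, against 34.6% of all, and in 45.0% of the 20 hypoxic promoters. The Azf1 element was in 24.1% and 18.3%, against 21.2% of all, the heat shock element in 14.2% and 11.2%, against 12.2% of all, and the sterol element in 3.87% and 4.65%, against 4.22% of all.

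**Figure D5:**
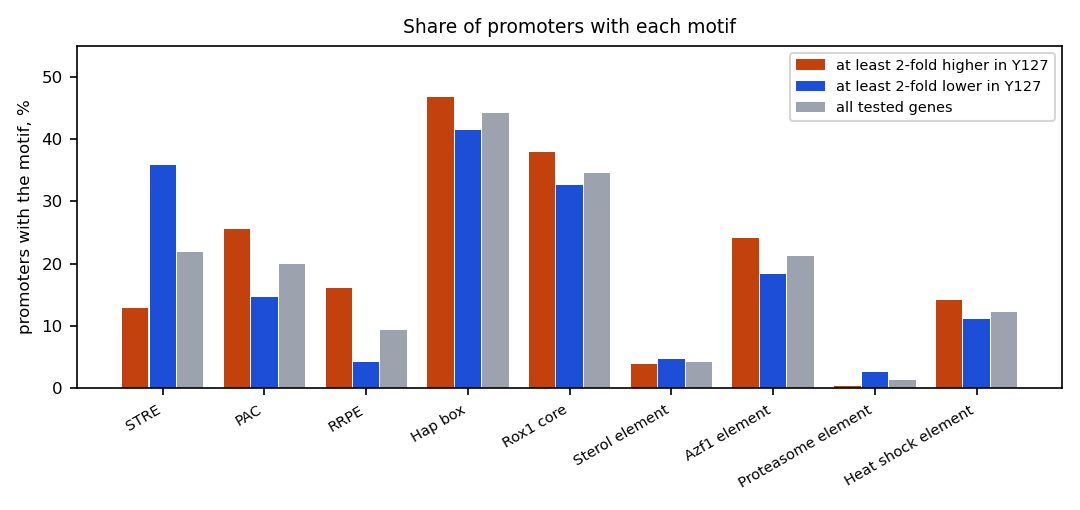
Share of promoter windows (vertical axis, %) that hold each of 9 motifs (horizontal axis) among genes at least 2-fold higher in Y127 after centring (orange, 1628 windows), genes at least 2-fold lower (blue, 1550 windows) and all tested genes (grey, 5425 windows). STRE stands at 12.9%, 35.9% and 21.9% in these groups, and PAC at 25.6%, 14.6% and 20.0%.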

How the data were processed

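RNA was measured by stranded, rRNA-depleted RNA-seq (single-end reads). Per the labels and the study's methods, the authors trimmed reads with Trimmomatic 0.3.0, mapped them to the Y22-3 genome with Bowtie2 2.2.2 and counted them with HTSeq 0.6.0. The deposited values are log2 RPKM with 1 read added to each count, in 1 table of 6328 genes and 32 libraries. Both columns of Y127 in glucose with oxygen, and both without, share 1 header name and letter and were used as unnumbered duplicates.

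The value of 1 read was recovered from genes at the lowest level shared within a library, using gene lengths of the RefSeq R64 assembly (5647 of 6328 identifiers matched). Of recovered reads under 200, 84.2 to 88.7% came out within 0.1 of a whole number in the 4 libraries, too few for a count test. The 5758 genes with a mean of at least 1 RPKM over the 4 libraries were tested with limma 3.58.1 in R 4.3.3 (group means, variance trend, 24 libraries, 12 residual degrees of freedom) and Benjamini-Hochberg adjustment over all tested genes at 0.05. Libraries were also centred on the median of the tested genes. The fit was also run on simulated counts in which most genes were left unchanged. Most genes differed in these data, so that run does not test the calls made here. Differences are Y127 minus Y22-3 on the log2 scale, given with the SE of the fit. The differences of strain differences were contrasts in the same fit.

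Gene groups are described by counts and medians, with no set test. The members and the lists were chosen with earlier results of these data known. Genes were named by rule: the 12 highest and 12 lowest with at least 10 RPKM that passed on both scales without overlap, up to 4 members with the largest centred difference and the member with the smallest in each of 43 lists, the genes the study names as mutated or as regulators, the 5 most abundant in each strain, and the 5 highest and 5 lowest differences against aerobic xylose; exceptions are marked. Figures and motif counts were made in Python 3.11.15. Promoters come from R64 (S288C). Alternatives were 2 centrings, 3 filters, 1 RPKM added, no variance trend, a fit of only the libraries compared and a replicate block. Each of the 4 anaerobic xylose libraries was also left out in turn, and libraries of other conditions were not.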

Additional observations from a re-analysis of the deposited data

Results flagged for a closer look

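The strain difference in anaerobic xylose was tested against that in the other conditions, and each value below stands out because this difference of differences passed the test (limma, adjusted p under 0.05). As deposited, 3768 genes had a higher and 520 a lower strain difference in anaerobic than in aerobic xylose, and 1877 and 1992 after centring. Against anaerobic glucose the counts were 3451 higher and 1003 lower as deposited, and 2363 and 2111 after centring.

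Of genes with a mean of at least 10 RPKM, the largest differences of differences against aerobic xylose (log2, deposited) were 14.94 for FDH1, 13.34 for GTK30P00120, 12.25 for ADH2, 10.97 for TIP1 and 9.82 for DSE1, a daughter-cell gene. Each of these genes was higher in Y127 in anaerobic xylose. At the other end were HSP30 at -5.71, the uncharacterised gene YNR014W at -5.26, RRT8 at -4.62, YKL065W-A at -4.35 and CYC7 at -4.33, all lower in Y127 in anaerobic xylose.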

How the results depend on the processing

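Centring on the median gave 1714 genes at least 2-fold higher, 2245 lower and 1630 at least 2-fold lower, a median of 0.152, and differences against aerobic xylose of 1877 higher and 1992 lower and 2111 lower against anaerobic glucose. Centring on the 75th percentile gave a median of 0.84 and 1195 genes lower against aerobic xylose. A filter at 10 RPKM, which tests 3753 genes, gave 1928 genes higher, 1554 at least 2-fold higher, a median of 0.518, and 2173 and 1897 genes higher against aerobic xylose and anaerobic glucose. Centring with only the 4 libraries compared, chosen after seeing the data, gave 2392 genes higher and 2179 lower, and centring with each library left out, also chosen after seeing the data, gave 2327 to 2487 higher and 2106, 2177, 2155 and 2117 lower (without Y127 A, Y127 B, Y22-3 A and Y22-3 B).

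Leaving out each library gave 3264 to 3550 genes higher, 2776 to 3098 at least 2-fold higher, 968 to 1276 lower, 661 to 930 at least 2-fold lower, and medians of 0.952 to 1.224. Against aerobic xylose it gave 3508 to 3804 genes higher and 389 to 641 lower, and against anaerobic glucose 3275 to 3517 higher and 827 to 1085 lower.

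Centring on the median turned the medians of the aerobic isoforms to -0.685, oxygen and heme regulators -0.75, hexose transporters -0.14, HOG pathway -0.539, iron-sulfur assembly -0.778, mitochondrial ribosomal proteins -0.524, sulfur amino acids -0.839, seripauperins -0.899 and meiosis -0.577. It turned single genes to lower values: PET9 -0.685, FUS1 -0.059, ATP5 -0.116, ARH1 -0.224, DIT1 -0.248, RPS26B -0.028, SPO11 -0.577, IME2 -0.86, SWE1 -0.383, IME1 -0.831, RSM22 -0.003, GAL2 -0.14, CCW12 -0.312, HMG1 -0.26, SNZ1 -0.689, ERG2 -0.149, TPS3 -0.599, HSP10 -0.091, RPT5 -0.421, PYK2 -0.117 and GAL4 -0.121. Centring on the 75th percentile turned oxygen and heme regulators to -0.062, iron-sulfur assembly -0.091, sulfur amino acids -0.152, seripauperins -0.212, IME2 -0.172, IME1 -0.143 and SNZ1 -0.001. The glycerol median turned to 0.185 with the filter at 10 RPKM and to 0.04 with a filter over 24 libraries. With each library left out, values spanned 0 for oxygen and heme regulators (-0.093 to 0.355), iron-sulfur assembly (-0.187 to 0.537), beta-oxidation (-0.759 to 0.212), sulfur amino acids (-0.326 to 0.283), seripauperins (-0.168 to 0.212), GAL7 (-0.348 to 0.167), IME1 (-0.3 to 0.554), IME2 (-0.081 to 0.278), SNZ1 (-0.245 to 0.784) and SPO11 (-0.069 to 0.83). Of 242 named genes, 191 kept direction and call under median centring.

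Deviations of same-lettered libraries of the strains in anaerobic xylose had r = 0.022 over 5758 genes. That value cannot show whether same-lettered cultures were collected on the same day. With the replicate block 3497 genes were higher and 1170 lower, and 3756 and 507 against aerobic xylose. No paired analysis was possible against anaerobic glucose because both Y127 columns there carry the same letter. Depth limits CLB6, which had 2 and 1 reads in Y22-3, so that no fold was given. The causes of these changes were not tested.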

Other observations

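Levels in anaerobic xylose were set beside those of other libraries over the same 5758 genes, as a description across genes that share libraries and sequence composition. The Y127 mean was most like the single Y22-3 library of anaerobic galactose (Pearson's r = 0.883) and the Y22-3 mean of aerobic xylose (0.880). It was at 0.823 with Y127 in aerobic xylose, 0.813 with Y128 in anaerobic xylose and 0.781 with Y22-3 in anaerobic xylose. The Y22-3 mean was most like its own single libraries of anaerobic galactose (0.900), anaerobic sorbitol (0.874) and aerobic sorbitol (0.843). It was at 0.581 with Y22-3 in anaerobic glucose and 0.481 with Y128 in anaerobic xylose.

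Among the 12 genes with the largest decreases, ALD3, PAI3, SIP18 and YMR175W-A lie on chromosome XIII, between positions 599352 and 611508 of R64. PAI3, an inhibitor of a vacuolar protease, had 90.5 and 188 RPKM in Y127, against 4551 and 4918 RPKM in Y22-3. SIP18, a hydrophilin that protects dried cells, had 178 and 193 RPKM in Y127, against 8756 and 7979 RPKM in Y22-3. This closeness was noticed after the values were seen and was not tested.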
